A study of Mus musculus with 18 samples.

Results

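The glucose-making and glucose-using enzymes of the mouse kidney were followed as 10 genes chosen by name from the gene-expression table. They are Pck1, Fbp1, G6pc, Pcx and Slc37a4 on the gluconeogenic side and Hk1, Hk2, Pfkp, Pkm and Ldha on the glycolytic side. Each stood on 1 of the 19545 rows of the table, so all 10 were found. All are protein-coding genes, which the GENCODE annotation of mm10 places at chr2:173153048-173159273 (Pck1), chr13:62864753-62888282 (Fbp1), chr11:101367561-101377903 (G6pc), chr19:4510472-4621752 (Pcx), chr9:44396852-44402968 (Slc37a4), chr10:62268855-62379908 (Hk1), chr6:82725025-82774454 (Hk2), chr13:6579768-6648777 (Pfkp), chr9:59656368-59679375 (Pkm) and chr7:46841475-46855627 (Ldha). RNA was sequenced from 18 whole-kidney samples of ICR mice, an outbred stock, all aged 10 weeks, with 3 samples in each of 6 groups. The groups were STZ with AOS at 10 mg/kg (STZ+AOS), STZ with an AOS-FMT at 10 mg/kg (STZ+AOS-FMT), STZ with a control FMT (STZ+control-FMT), STZ alone, AOS alone at 10 mg/kg, and control. By common usage STZ is streptozotocin, which destroys the pancreatic cells that secrete insulin, and FMT is the transfer of faecal microbes from a donor. AOS is not spelled out in the labels, the dose or schedule of STZ and any blood glucose are not stated there, and the word before FMT was read as the treatment of the donors. The labels do not say that each sample came from a separate mouse, and every p-value below therefore speaks only to variation among these samples, possibly of technical origin.

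Gluconeogenesis makes new glucose from lactate, glutamine and glycerol. In the kidney it is a task of the proximal tubule, and it is known to increase in fasting, acidosis and diabetes, when insulin no longer restrains transcription of Pck1 and G6pc. Glycolysis runs the other way and is used chiefly by the more distal segments, the medulla and regenerating tubule cells. Pyruvate carboxylase (Pcx) makes oxaloacetate in mitochondria, phosphoenolpyruvate carboxykinase (Pck1) turns it into phosphoenolpyruvate in the cytosol, and fructose-1,6-bisphosphatase (Fbp1) removes a phosphate further up. The transporter encoded by Slc37a4 then carries glucose 6-phosphate into the endoplasmic reticulum, where glucose-6-phosphatase (G6pc) frees glucose. Hexokinases 1 and 2 (Hk1, Hk2) phosphorylate glucose, the platelet-type phosphofructokinase (Pfkp) commits it to glycolysis, pyruvate kinase (Pkm) makes pyruvate, and lactate dehydrogenase A (Ldha) reduces pyruvate to lactate.

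Promoter sequences are printed for the pair of gluconeogenic genes under the best known hormonal control, Pck1 and G6pc, and for a pair of glycolytic genes, Pkm and Ldha, as a contrast in base composition. Each is the 250 bases before the RefSeq transcript start nearest to the gene's 5′ end, on build GRCm38.p6, whose coordinates are those of mm10. Capitals mark matches to any of 7 short motifs searched on both strands: the TATA box TATAAA, the GC box GGGCGG, the end of a cAMP response element ACGTCA, the E-box CACGTG, the hypoxia response core ACGTG (which lies inside every CACGTG), the CCAAT box CCAAT, and TGTTTTG, a core of insulin response sequences.
Pck1, chr2:173152823-173153072, + strand: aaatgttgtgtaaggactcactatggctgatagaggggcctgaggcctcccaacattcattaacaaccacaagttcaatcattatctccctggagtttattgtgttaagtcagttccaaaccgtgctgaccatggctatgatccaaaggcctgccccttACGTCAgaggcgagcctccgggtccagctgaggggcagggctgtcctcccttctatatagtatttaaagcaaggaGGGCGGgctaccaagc
G6pc, chr11:101367466-101367715, + strand: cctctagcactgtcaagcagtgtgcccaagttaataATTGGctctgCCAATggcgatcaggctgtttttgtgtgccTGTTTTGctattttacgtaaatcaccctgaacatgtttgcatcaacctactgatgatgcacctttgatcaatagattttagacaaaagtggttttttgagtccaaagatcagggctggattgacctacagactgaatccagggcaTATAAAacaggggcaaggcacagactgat
Pkm, chr9:59656326-59656575, + strand: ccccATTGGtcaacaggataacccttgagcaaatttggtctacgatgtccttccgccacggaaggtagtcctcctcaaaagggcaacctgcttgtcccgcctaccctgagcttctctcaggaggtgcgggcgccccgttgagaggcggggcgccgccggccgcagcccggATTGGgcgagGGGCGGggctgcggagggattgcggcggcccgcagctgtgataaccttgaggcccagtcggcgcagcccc
Ldha, chr7:46845554-46845803, + strand: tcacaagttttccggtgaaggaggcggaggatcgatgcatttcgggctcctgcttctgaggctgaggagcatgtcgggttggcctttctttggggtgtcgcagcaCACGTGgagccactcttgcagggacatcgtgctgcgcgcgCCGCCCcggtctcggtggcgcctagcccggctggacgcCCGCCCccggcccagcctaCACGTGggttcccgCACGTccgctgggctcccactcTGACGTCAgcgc

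The Pck1 window held ACGTCA starting 91 bases before the start, the place of a cAMP response element known in the rat gene, and a GC box at 16 bases. The G6pc window held the letters TATAAA at 29 bases, CCAAT at 214 and 204 bases and TGTTTTG at 174 bases, and it had only 2 CpG dinucleotides. Ldha had 25 CpG, CACGTG at 145 and 48 bases, and a complete TGACGTCA whose ACGTCA matches begin 12 bases (reverse strand) and 10 bases before the start. Pkm had 21 CpG and a GC box at 70 bases. The median over 32851 RefSeq windows of this length was 6 CpG. TATAAA was present in 12.37% of them, GGGCGG in 32.74%, ACGTCA in 6.469%, CACGTG in 6.021%, ACGTG in 16.57%, CCAAT in 33.85% and TGTTTTG in 5.561%. All 10 genes matched the RefSeq table. By the window nearest to the 5′ end, Hk2 had 25 CpG, Pcx 16, Pfkp 16, Slc37a4 7, Fbp1 5 and Pck1 5, while Hk1 had 1 CpG and none of the motifs. A second Hk1 window, at a start further downstream, had 14 CpG. A match is a run of letters and not evidence of binding.

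Values are FPKM, read here as fragments per kilobase of transcript scaled to the reads mapped in a library, as the authors deposited them, so levels can be compared between genes per length. On this scale the gluconeogenic genes were among the most abundant transcripts of the kidney. Ranked by the mean over 18 libraries among 19542 gene symbols, Fbp1 stood at 58, Pck1 at 79, Ldha at 204, G6pc at 441, Slc37a4 at 556, Pkm at 665 and Pcx at 750. Hk1 ranked 3082, Pfkp 3848 and Hk2 13393. Differences are given on the log2(FPKM + 1) scale with limma, fitted over all 18 libraries and the 12682 genes that reached 1 FPKM in 3 or more of them, and a call is a Benjamini-Hochberg adjusted p under 0.05 over those genes. Of the 10 enzymes 9 passed that filter. Hk2 reached 1 FPKM in 1 library only and was not tested there.

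Several libraries stood apart from their groups. Kap, an androgen-driven proximal tubule transcript, was at 15798 FPKM in control 3 against 150876 and 145522 FPKM in the other two controls, and at 144830.0 FPKM in STZ 1 against 63552 and 14615 FPKM in the other two STZ samples. Cdkn1a, a cell cycle inhibitor induced by damage, was at 82.6 FPKM in control 3 and 6.52 FPKM in STZ 1. In both genes control 3 lay with the STZ-treated libraries and STZ 1 with those given no STZ. Adrenal transcripts were highest in STZ+AOS 1, STZ+AOS 3 and control 3, in which Cyp11b1, a steroid hydroxylase of the adrenal cortex, was at 316, 276 and 118 FPKM. They were not confined to these: the sum of 8 adrenal cortex markers was 118 FPKM in STZ+AOS 2, 56.9 FPKM in STZ 3 and 41.8 FPKM in STZ 2. It was at most 2.52 FPKM in STZ+AOS-FMT, STZ+control-FMT and AOS libraries. The sum of 8 adrenal cortex markers was 118 to 2535 FPKM in STZ+AOS, 1.20 to 56.9 FPKM in the other STZ groups, and 1.64 to 922 FPKM in AOS and control libraries. Proximal tubule markers were present throughout: the sum of 13 of them, Kap left aside, was 4362 to 6862 FPKM in STZ+AOS and 6294 to 12716 FPKM elsewhere, with none at 0 in any library, and Umod, a marker of the thick ascending limb, was at 307 to 1032 FPKM. A set of 6 spermatid transcripts summed to 22.5 to 85.4 FPKM in STZ and 30.0 to 43.1 FPKM in control, against at most 0.59 FPKM in each library of the other 4 groups, and its part in comparisons across that line was not tested.

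Pck1 was the most variable of the gluconeogenic genes. It was at 193, 888 and 2572 FPKM in STZ+AOS, at 929.6, 1010.5 and 1657 FPKM in STZ+AOS-FMT and at 1328, 762 and 1132 FPKM in STZ+control-FMT. It was at 577, 1078 and 1322 FPKM in STZ, against 514, 549.5 and 664 FPKM in AOS and 524, 491 and 1011 FPKM in control. The lowest and the highest of all 18 libraries were both STZ+AOS samples, a 13.3-fold span, so every comparison with that group overlapped. Of the 12 libraries given STZ, 6 lay above every library without it and 1 lay below all of them. Such counts were not tested and were not taken over all genes, so no background share stands beside them. Above and below, they were 3 and 1 for Fbp1, 1 and 4 for Pcx, 0 and 0 for Hk1, and 7 and 2 for Hk2. For Pfkp they were 2 and 2, for Pkm 1 and 0, and for Ldha 1 and 4. Over the 4 STZ groups against AOS and control the log2 difference was 0.67 ± 0.40 (SE), adjusted p = 0.256. For STZ against control alone it was 0.55 ± 0.65 (SE), adjusted p = 1.00, with overlapping groups. Against AOS, STZ+AOS stood at 0.41 ± 0.65 (SE), adjusted p = 0.608. That value rested on single libraries: it was 1.40 and called without STZ+AOS 1 (adjusted p = 0.0413), and -0.46 without STZ+AOS 3 (adjusted p = 0.472).

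Igfbp1, which insulin represses in liver, was at 3.06, 8.25 and 117 FPKM in the 3 STZ+AOS libraries, against 0.79 to 18.1 FPKM in the other 15. Its highest library, STZ+AOS 3, was also the highest for Pck1. Irs2, another insulin-repressed gene and an adaptor of the insulin receptor, was at 4.87, 5.91 and 17.9 FPKM in STZ+AOS, against 1.85, 1.52 and 2.16 FPKM in AOS. Igfbp1 was singled out after its values were seen.

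G6pc ran lower, not higher, in most libraries given STZ. It was at 63.8, 92.8 and 288 FPKM in STZ+AOS, at 196, 204 and 337 FPKM in STZ+AOS-FMT and at 218, 213 and 123 FPKM in STZ+control-FMT. It was at 286, 151 and 169 FPKM in STZ, against 271, 271 and 231 FPKM in AOS and 268, 357 and 241 FPKM in control. Of the 12 libraries given STZ, 9 lay below every library without it and none lay above, a count with no share over all genes beside it. The log2 difference over the 4 STZ groups was -0.61 ± 0.26 (SE), adjusted p = 0.159, and for STZ against control it was -0.55 ± 0.43 (SE), adjusted p = 1.00. G6pc fell in STZ+AOS against AOS by a log2 difference of -1.10 ± 0.43 (SE), adjusted p = 0.0490, although STZ+AOS 3 lay above all 3 AOS libraries. That call rested close to the threshold: it was lost under 7 of 10 other settings and when any 1 of 5 of the 6 libraries compared was left out (adjusted p up to 0.230), and without STZ+AOS 3 the difference was -1.73 (adjusted p = 0.0112).

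Fbp1 was the most abundant of the 10. It was at 619, 931 and 975 FPKM in STZ+AOS, at 1408, 1312 and 1453 FPKM in STZ+AOS-FMT and at 1304, 1318 and 1176 FPKM in STZ+control-FMT. It was at 1209, 1469 and 1223 FPKM in STZ, against 978, 1075 and 1099 FPKM in AOS and 894, 961 and 1326 FPKM in control. All 3 STZ+AOS libraries lay below all 3 STZ libraries, with means of 841 ± 194 and 1300.1 ± 146 FPKM (SD, n = 3 each). Fbp1 fell in STZ+AOS against STZ by a log2 difference of -0.65 ± 0.17 (SE), adjusted p = 0.0478. The call was lost when STZ+AOS 1, STZ 1 or STZ 2 was left out (0.174 at most after adjustment) and without control 3 and STZ 1 together (-0.70, adjusted p = 0.0778). It was also lost after quantile normalization (adjusted p = 0.0794), with a pseudocount of 0.1 (0.0543), in a fit of only the groups compared (0.325) and without the libraries with Cyp11b1 above 100 FPKM (0.262). Against AOS, Fbp1 was also below without overlap, at -0.35 ± 0.17 (SE), adjusted p = 0.0943. For STZ against control it was 0.31 ± 0.17 (SE), adjusted p = 1.00.

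Pcx was at 70.5, 89.7 and 140.1 FPKM in STZ+AOS, at 141, 157 and 142 FPKM in STZ+AOS-FMT and at 137, 123 and 134 FPKM in STZ+control-FMT. It was at 137, 113 and 135 FPKM in STZ, against 128, 144 and 130.4 FPKM in AOS and 131, 148 and 123 FPKM in control. STZ+AOS 1 and 2 were the lowest of the 18, and the other 16 libraries lay within 113 to 157 FPKM. Pcx fell in STZ+AOS against AOS, at -0.48 ± 0.18 (SE), adjusted p = 0.0387, a call lost when any 1 of the libraries other than STZ+AOS 3 was left out (adjusted p up to 0.195). In STZ+AOS-FMT all 3 libraries lay above all 3 of STZ and all 3 of STZ+control-FMT, with log2 differences of 0.20 ± 0.18 (SE), adjusted p = 1.00, and 0.16 ± 0.18 (SE), adjusted p = 1.00.

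Slc37a4 was highest in STZ+AOS 3 and in the STZ+AOS-FMT libraries. It was at 79.2, 135 and 233 FPKM in STZ+AOS, at 213, 230.1 and 228 FPKM in STZ+AOS-FMT and at 192, 201 and 157 FPKM in STZ+control-FMT. It was at 180.3, 192 and 179.5 FPKM in STZ, against 156, 163 and 161 FPKM in AOS and 161, 152 and 188 FPKM in control. Of the 12 libraries given STZ, 7 lay above every library without it and 2 lay below, again a count not taken over all genes. The STZ+AOS-FMT libraries did not overlap STZ or STZ+control-FMT, and lay above both, but the differences of 0.28 ± 0.25 (SE), adjusted p = 1.00, and 0.29 ± 0.25 (SE), adjusted p = 1.00, were not called. The share of all tested genes that lay above without overlap was 5.50% for STZ+AOS-FMT against STZ and 6.39% against STZ+control-FMT.

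**Figure D1:**
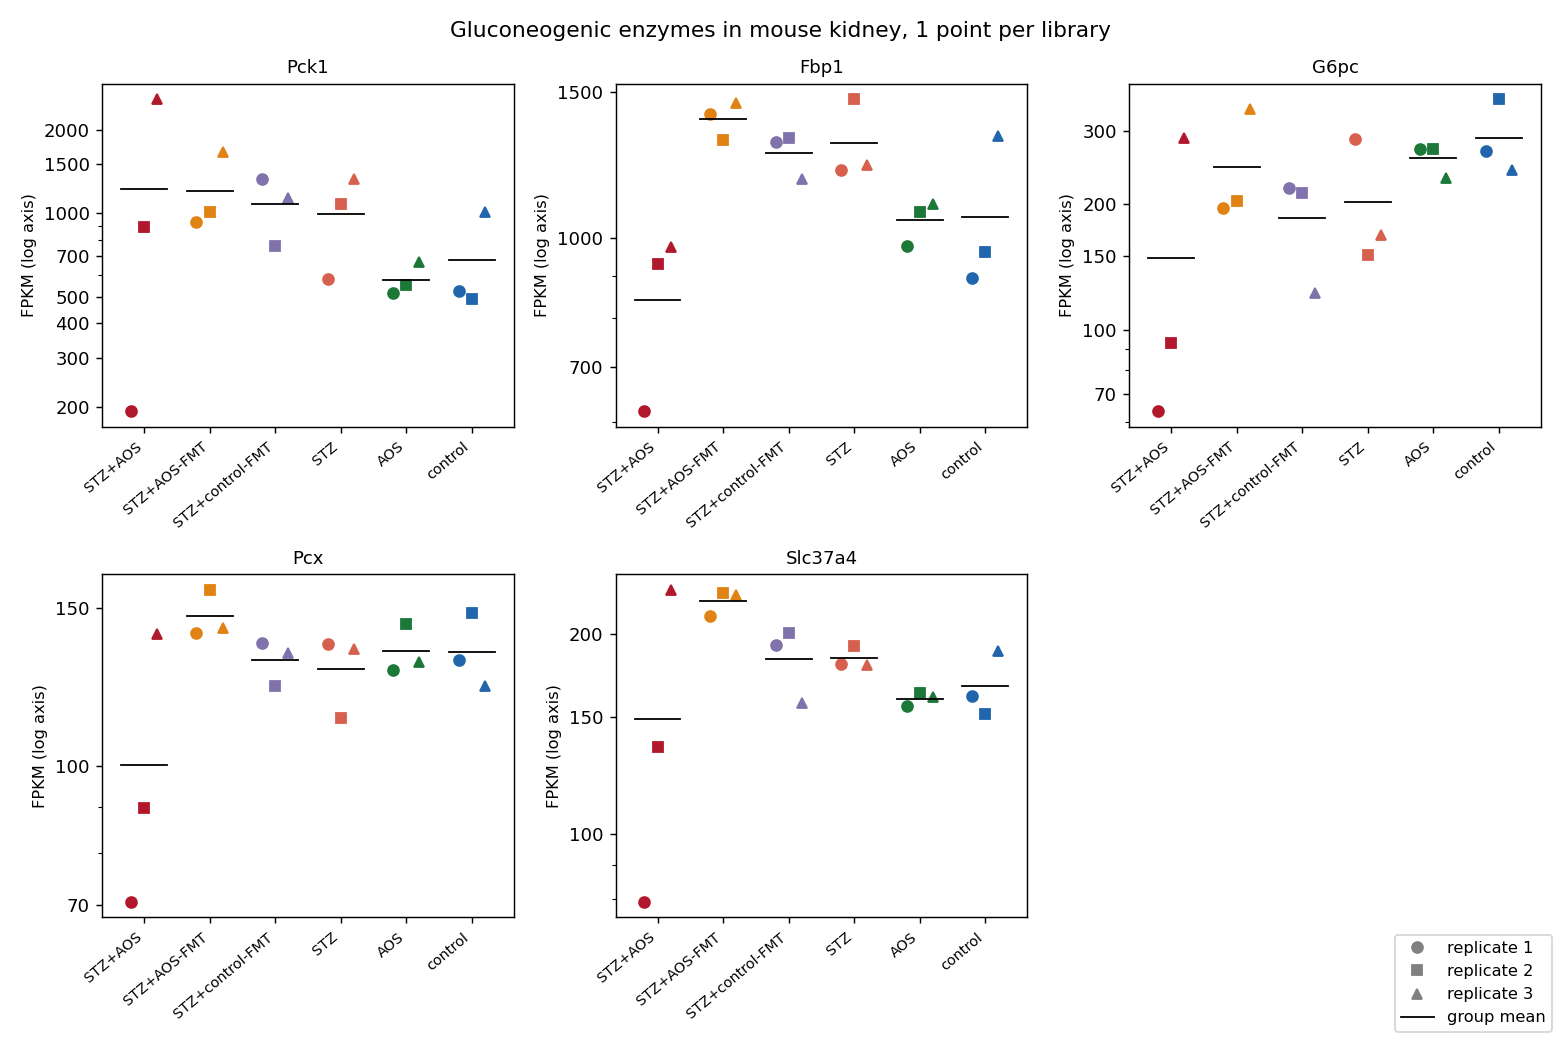
FPKM of the 5 gluconeogenic genes in each library on a log axis, by group, with a black line at each group mean and a marker shape for each replicate. The STZ+AOS group spans the widest range in Pck1 (193 to 2572 FPKM), and its replicate 1 is the lowest point of every panel.

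The 3 STZ+AOS libraries were unlike each other on this side of the pathway. STZ+AOS 1 had the lowest value of all 18 libraries in 5 of 5 gluconeogenic genes, and it had the highest value in 3 of 5 glycolytic genes, Hk2, Pfkp and Pkm. It also had the highest level of Havcr1, the kidney injury molecule of damaged proximal tubules, at 423 FPKM, against 1.30 to 32.0 FPKM in the other 17 libraries, and the lowest level of the phosphate transporter Slc34a1, a proximal tubule marker, at 1288 FPKM. STZ+AOS 3 was the highest for Pck1 and Slc37a4 and the lowest for Ldha. Adrenal transcripts were high in both of these libraries, with Cyp11b1 at 316 FPKM in STZ+AOS 1 and 276 FPKM in STZ+AOS 3, and their part in the spread of Pck1 was not tested.

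On the glycolytic side, Hk1, Pfkp and Pkm were higher in all 3 STZ+AOS libraries than in all 3 AOS libraries. Hk1 was at 41.9, 36.6 and 39.5 FPKM in STZ+AOS, at 24.1, 16.5 and 21.4 FPKM in STZ+AOS-FMT and at 22.9, 23.9 and 29.7 FPKM in STZ+control-FMT. It was at 16.0, 24.3 and 40.6 FPKM in STZ, against 23.2, 19.7 and 15.1 FPKM in AOS and 18.9, 24.3 and 42.8 FPKM in control. STZ 3 and control 3 reached the STZ+AOS level and STZ 1 lay near the lowest AOS library. Hk1 rose in STZ+AOS against AOS by a log2 difference of 1.00 ± 0.30 (SE), adjusted p = 0.0169, a call lost without STZ+AOS 1 (adjusted p = 0.0521) or AOS 3 (adjusted p = 0.0660). Against STZ the difference was 0.62 ± 0.30 (SE), adjusted p = 0.160.

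Pfkp was at 32.7, 29.4 and 27.9 FPKM in STZ+AOS, at 16.5, 17.0 and 13.8 FPKM in STZ+AOS-FMT and at 15.7, 17.4 and 22.0 FPKM in STZ+control-FMT. It was at 11.2, 21.7 and 27.4 FPKM in STZ, against 15.3, 19.2 and 14.2 FPKM in AOS and 15.7, 22.5 and 29.0 FPKM in control. The STZ+AOS libraries lay above every STZ and AOS library, while control 3 reached into their range. Pfkp rose in STZ+AOS against AOS, at 0.86 ± 0.26 (SE), adjusted p = 0.0182, a call lost without STZ+AOS 1 (adjusted p = 0.0587) or AOS 3 (adjusted p = 0.0619). Against STZ it was 0.64 ± 0.26 (SE), adjusted p = 0.110.

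Pkm showed the largest difference of the 9 enzymes tested in that comparison. It was at 283, 219 and 183 FPKM in STZ+AOS, at 129, 103 and 114 FPKM in STZ+AOS-FMT and at 136, 135 and 176 FPKM in STZ+control-FMT. It was at 87.4, 143 and 236 FPKM in STZ, against 101, 85.4 and 79.5 FPKM in AOS and 109, 107 and 236 FPKM in control. The means were 228 ± 50.8 FPKM in STZ+AOS and 88.6 ± 10.9 FPKM in AOS (SD, n = 3 each). Pkm rose in STZ+AOS against AOS by a log2 difference of 1.34 ± 0.32 (SE), adjusted p = 0.00838, and it stayed past the threshold without each of the 6 libraries in turn (adjusted p up to 0.0349). Against STZ the difference was 0.64 ± 0.32 (SE), adjusted p = 0.174, with STZ 3 inside the STZ+AOS range. The FPKM of Pkm adds its splice forms and may share reads with processed copies of the gene, as may that of Ldha, since how reads with several matches were counted is not stated.

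Ldha had the narrowest relative span of the glycolytic genes. It was at 449, 479.9 and 356 FPKM in STZ+AOS, at 457, 493 and 480.3 FPKM in STZ+AOS-FMT and at 485, 491 and 534 FPKM in STZ+control-FMT. It was at 605, 521 and 418 FPKM in STZ, against 495, 503 and 529 FPKM in AOS and 567, 493 and 478 FPKM in control. The STZ+AOS libraries lay below all 3 AOS libraries, the opposite side from Hk1, Pfkp and Pkm, at -0.26 ± 0.13 (SE), adjusted p = 0.106, and overlapped those of STZ, at -0.26 ± 0.13 (SE), adjusted p = 0.172.

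Hk2, the insulin-responsive hexokinase of muscle and fat, had the lowest level of the 10. It was at 1.16, 0.81 and 0.49 FPKM in STZ+AOS, at 0.35, 0.10 and 0.19 FPKM in STZ+AOS-FMT and at 0.44, 0.53 and 0.57 FPKM in STZ+control-FMT. It was at 0.33, 0.13 and 0.42 FPKM in STZ, against 0.15, 0.25 and 0.34 FPKM in AOS and 0.27, 0.37 and 0.32 FPKM in control. All 3 STZ+AOS libraries lay above all libraries of STZ, AOS and control, but they overlapped those of STZ+control-FMT. Of the 12682 genes tested, which leave out Hk2, 20.2% lay above STZ without overlap. Against AOS, 59.4% of them did not overlap, in either direction. With no filter on low values, over 19250 genes, the log2 difference in STZ+AOS was 0.53 against AOS (adjusted p = 0.0106), where 32.8% of those genes were called, and 0.48 against STZ (adjusted p = 0.0394), where 5.85% were.

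**Figure D2:**
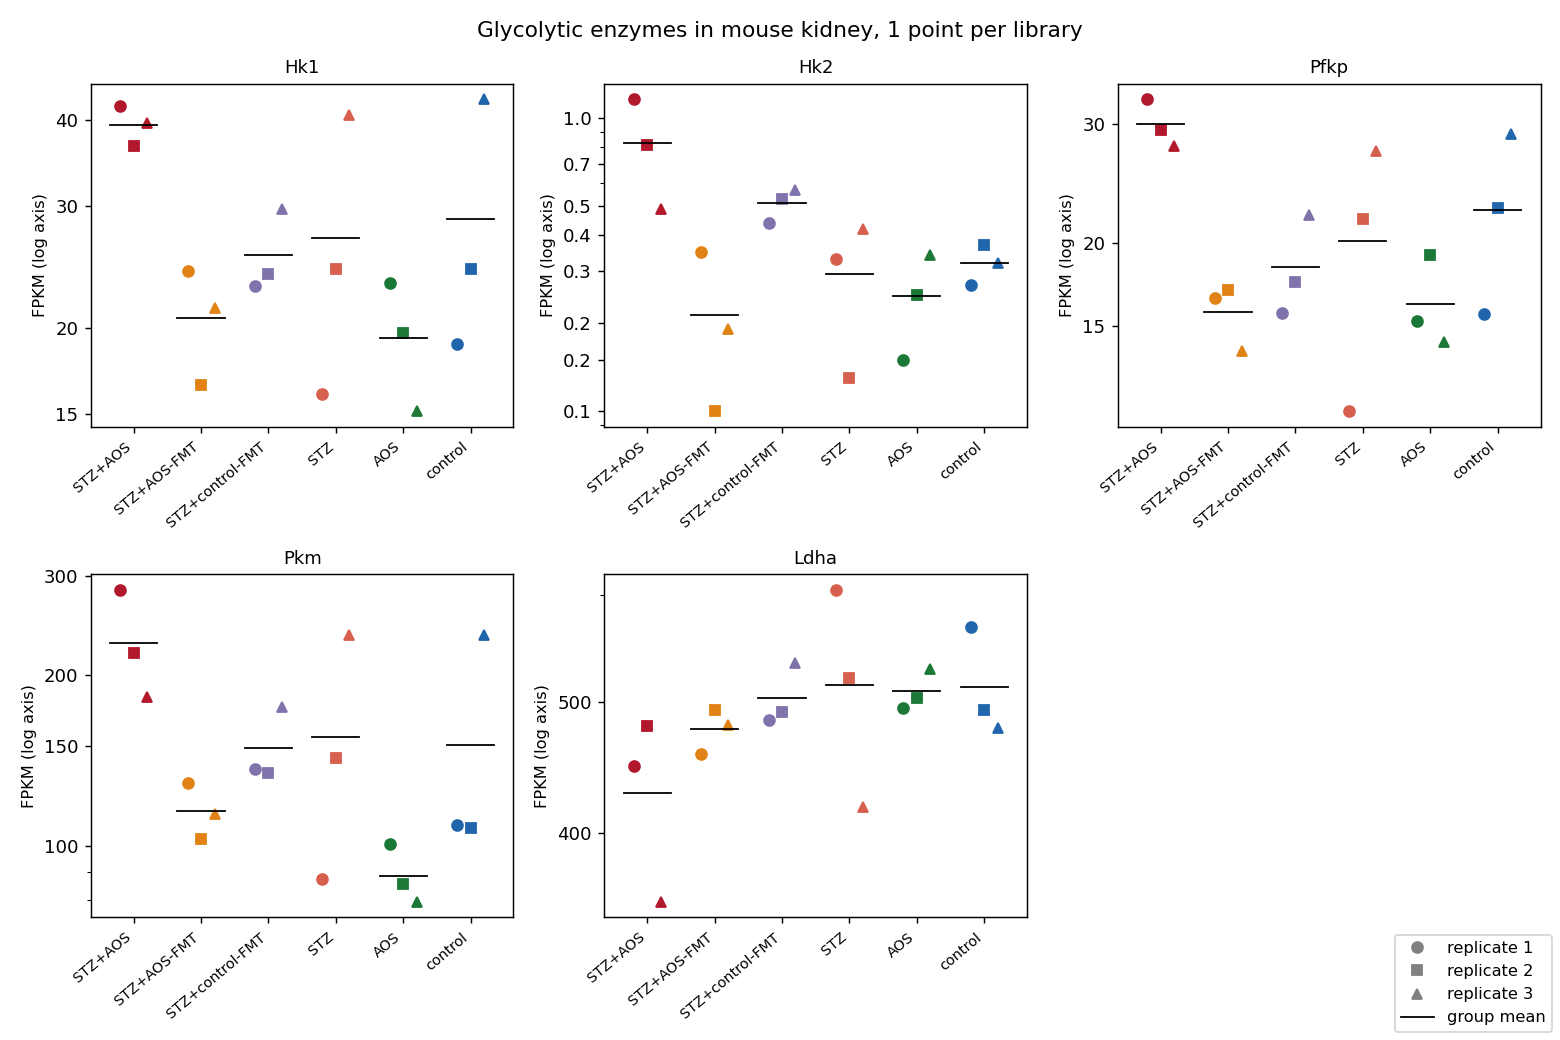
FPKM of the 5 glycolytic genes in each library on a log axis, by group, with a black line at each group mean and a marker shape for each replicate. Hk1, Pfkp and Pkm lie high in all 3 STZ+AOS libraries and in STZ 3 and control 3, and Hk2 stays under 1.2 FPKM throughout.

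**Figure D3:**
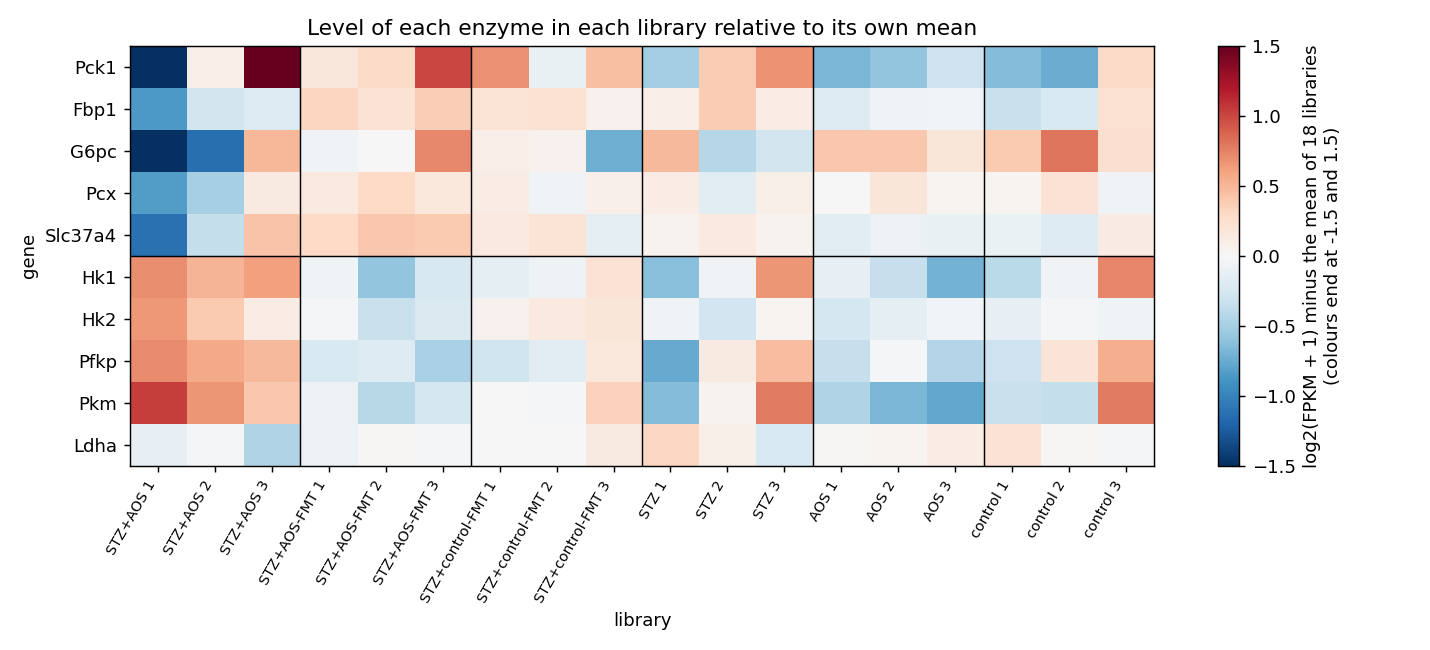
Deviation of each enzyme from its own mean over 18 libraries, on the log2(FPKM + 1) scale, for each library in columns and each gene in rows, with colours ending at -1.5 and 1.5. The first column, STZ+AOS 1, is low in all 5 gluconeogenic genes and high in Hk1, Hk2, Pfkp and Pkm, and STZ+AOS 3 is at the upper end for Pck1.

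STZ+AOS against AOS, the effect of STZ with AOS given to both, was the comparison in which most enzymes were called. Of the 9 tested, 5 passed: Hk1, Pfkp and Pkm rose, and G6pc and Pcx fell. In the same comparison 46.5% of all 12682 genes were called, 39.3% higher and 7.18% lower, so the share among the enzymes was near that background. With 1 library left out the count was 7 without STZ+AOS 3 (45.4% of all genes called), 2 without STZ+AOS 1 (27.9%), 1 without AOS 3 (27.7%), and 3 without STZ+AOS 2 (40.3%), AOS 1 (34.0%) or AOS 2 (28.7%). Groups did not overlap for 5 of the 9, against 59.4% of all genes. The median log2 difference was -0.35 over the 5 gluconeogenic genes, 0.93 over the 4 glycolytic genes tested and 0.29 over all genes. After median-of-ratios rescaling, which put the median of all genes at -0.01, the differences were 0.99 for Pkm, 0.66 for Hk1, 0.52 for Pfkp (adjusted p = 0.0669), -0.83 for Pcx, -1.45 for G6pc, -0.70 for Fbp1 (adjusted p = 0.0100) and -0.61 for Ldha (adjusted p = 0.0174). All calls were 4985 up and 910 down as deposited, 1723 up and 2499 down once rescaled, and 1407 up and 1951 down after quantile normalization.

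Markers of several cell types moved with this comparison, and those of others did not. The sum of 13 proximal tubule markers was 4362 to 6862 FPKM in STZ+AOS, against 11197 to 12574 FPKM in AOS, and 10 of 14 tested, Kap included, fell. Slc34a1 was at 1288, 1898 and 1458 FPKM in STZ+AOS, against 2719, 2633 and 2908 FPKM in AOS. The sum of 7 tubular injury markers was 1081 to 4899 FPKM in STZ+AOS, against 288 to 339 FPKM in AOS, that of 6 collecting duct principal cell markers 266 to 579 against 137 to 201 FPKM, that of 5 podocyte markers 100.2 to 105 against 42.8 to 51.4 FPKM, that of 5 endothelial markers 120.1 to 159 against 63.2 to 80.8 FPKM, and that of 6 leukocyte markers 46.1 to 76.9 against 34.0 to 46.0 FPKM. The 8 adrenal cortex markers summed to 118 to 2535 FPKM in STZ+AOS, against 1.89 to 2.22 FPKM in AOS, where 1 of them was at 0 in every library, and 6 chromaffin markers of the adrenal medulla summed to 18.3 to 336 FPKM in STZ+AOS, against 0.75 to 3.86 FPKM in AOS, where 3 were at 0 in every library. Of those tested, 6 of 6 injury, 3 of 6 principal cell, 5 of 5 podocyte, 5 of 5 endothelial, 8 of 8 adrenal cortex and 6 of 6 chromaffin markers rose, and of 5 leukocyte markers 2 rose and 1 fell. The adrenal cortex and chromaffin markers were near 0 in AOS and passed the filter largely through libraries of other groups, STZ+AOS among them. Their counts were thus largely set beforehand and are no support beside those of the other lists. Called were 0 of 6 distal and connecting tubule and 0 of 5 erythroid markers. The 6 spermatid markers were all at 0 in every AOS library, and 4 of them in every STZ+AOS library. They summed to at most 0.59 FPKM in STZ+AOS, so this comparison could say nothing about them. Of 6 thick ascending limb markers 1 fell, and 2 of 6 intercalated cell and 1 of 5 adipocyte markers rose. Over all genes, 39.3% were called higher and 7.18% lower. Without the libraries with Cyp11b1 above 100 FPKM, STZ+AOS keeps only STZ+AOS 2, whose adrenal cortex markers still sum to 118 FPKM. The fit then takes the spread of that group from the other groups. There 1 of 9 enzymes was called, Pcx, against 5.88% of all genes, and Pkm stood at 1.30 (adjusted p = 0.0531) and G6pc at -1.46 (adjusted p = 0.0528). In bulk RNA, fewer cells of a type and less RNA per cell cannot be told apart, and the part of these cell types in the enzyme differences was not tested.

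**Figure D4:**
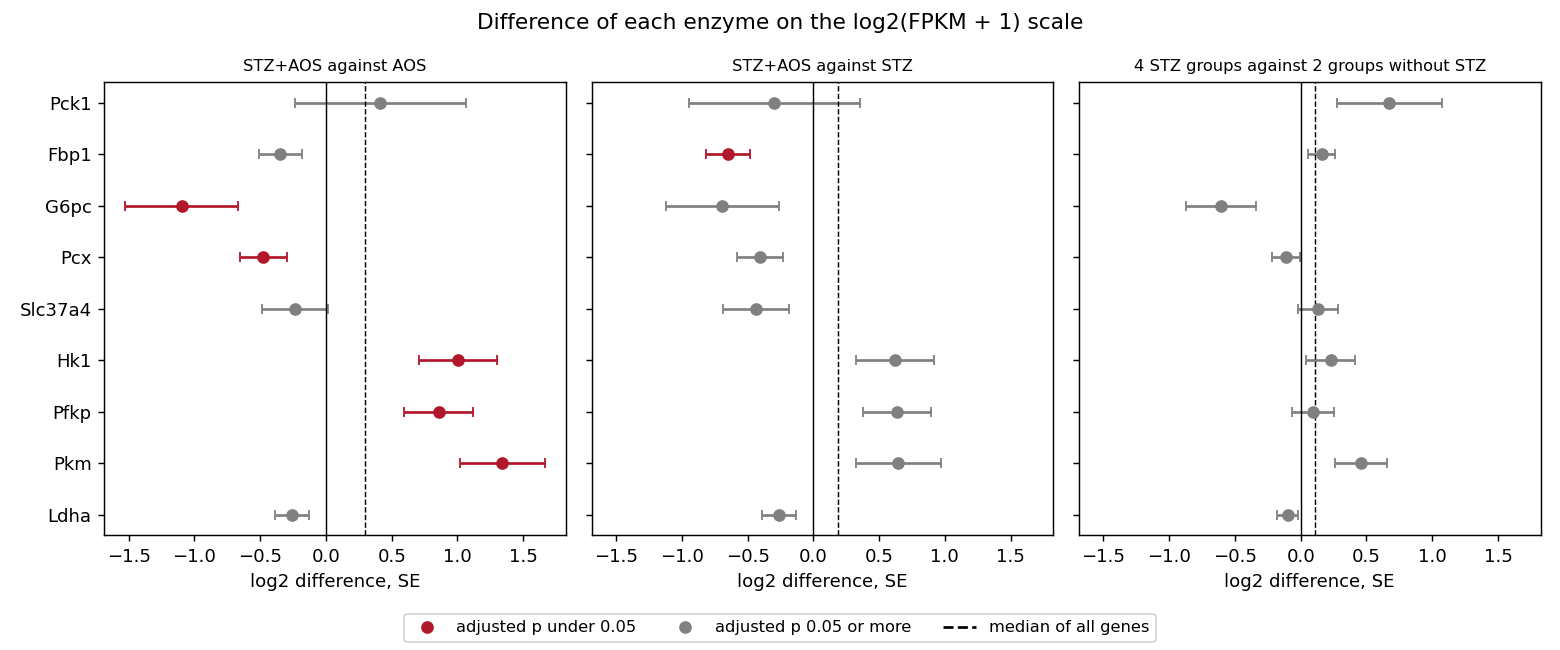
Log2 difference with its standard error for the 9 enzymes tested in 3 comparisons, on the log2(FPKM + 1) scale, with calls in red and the median of all genes as a dashed line. Calls fall on both sides of the median in STZ+AOS against AOS, Fbp1 alone is called in STZ+AOS against STZ, and none is called over the 4 STZ groups.

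STZ+AOS against STZ, the effect of AOS in mice given STZ, gave 1 call among the 9 enzymes, Fbp1, where 4.53% of all genes were called and 1.1% were called lower. With 1 library left out the count was 5 without STZ 3 (26.4% of all genes called), 3 without STZ+AOS 3 (1.53%), and 0 without STZ+AOS 1 (0.118%), STZ 1 (0.0867%) or STZ 2 (0.0867%). All 5 gluconeogenic genes had differences below 0, with a median of -0.44, and the 4 glycolytic genes tested had a median of 0.63, against 0.19 over all genes. Without overlap, 1 of 9 enzymes lay below STZ (Fbp1), against 4.01% of all genes, and 1 lay above (Pfkp), against 20.2%. Of 14 proximal tubule markers, 13 also had differences below 0 in this comparison, with a median of -0.69, and 2 were called lower. Of 6 chromaffin markers, which summed to at most 5.82 FPKM in STZ, 6 rose, a count likewise largely set by the filter. Above 0 were 8 of 8 adrenal cortex markers (median 4.64, 2 called) and 6 of 6 injury markers (median 1.63). So were 5 of 5 podocyte markers (median 0.71) and 5 of 5 endothelial markers (median 0.65, 1 called). Below 0 were 5 of 5 erythroid markers (median -0.38) and 4 of 6 distal and connecting tubule markers. The sum of 13 proximal tubule markers, Kap left aside, was 4362 to 6862 FPKM in STZ+AOS, against 6730 to 12716 FPKM in STZ, ranges that overlap. The part of these markers' cells in the fall of Fbp1 and in the differences of the other gluconeogenic genes was not tested. All calls were 436 up and 139 down as deposited, 213 up and 592 down with median-of-ratios factors, and 37 up and 91 down after quantile normalization. The interaction term sets the AOS difference in mice given STZ against the AOS difference in mice without it. It called 0 of 12682 genes in limma, with 4240 genes (33.4%) and 4 of the 9 enzymes at an unadjusted p under 0.05. Without STZ 3 it called 24% of all genes, with Hk1, Pkm and Pfkp among them, and without STZ+AOS 2 it called 6.25% and no enzyme. In it the log2 differences were -0.66 ± 0.23 (SE), adjusted p = 0.0938 for Fbp1, and 1.31 ± 0.46 (SE), adjusted p = 0.0910 for Pkm. Pfkp stood at 1.05 ± 0.37 (SE), adjusted p = 0.0914, and Hk1 at 1.11 ± 0.42 (SE), adjusted p = 0.105.

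STZ alone against control called no enzyme and 0 of 12682 genes in limma, with 161 genes (1.27%) at an unadjusted p under 0.05 and none of the 9 enzymes among them. The enzyme differences were between -0.55 for G6pc and 0.55 for Pck1, and no enzyme's groups were free of overlap, against 3.23% of all genes. Leaving out control 3 and STZ 1, the libraries that lie with the other treatment in Kap and Cdkn1a, called no enzyme, while 8.71% of all genes were called. Pck1 was then at 1.23 (adjusted p = 0.324), G6pc at -0.95 (adjusted p = 0.254) and Fbp1 at 0.53 (adjusted p = 0.0727). AOS alone against control called no enzyme and 0.071% of genes. Pkm lay below control without overlap, at -0.67 ± 0.32 (SE), adjusted p = 0.817, where 10.2% of all genes lay below without overlap, and Hk1 was at -0.48 ± 0.30 (SE), adjusted p = 0.817. Without control 3 these differences were -0.29 for Pkm and -0.16 for Hk1.

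Neither transplant called an enzyme against STZ. The share of all genes called was 0.11% for STZ+AOS-FMT and 0.103% for STZ+control-FMT. The 5 gluconeogenic genes all had differences above 0 in STZ+AOS-FMT against STZ (median 0.28) and against STZ+control-FMT (median 0.16). The 4 glycolytic genes tested all had differences below 0 (medians -0.27 and -0.25), against medians of 0.01 and -0.01 over all genes. Of 14 proximal tubule markers, 13 were above 0 against STZ (median 0.24) and 12 against STZ+control-FMT (median 0.17), and their part in these differences was not tested. Of 12682 genes, 0 were called between the donors, and 209 (1.65%), none of them an enzyme here, had an unadjusted p under 0.05. The comparisons of STZ+AOS-FMT with STZ and with STZ+control-FMT share libraries, so they are not independent of each other. Between the donors, Pkm in STZ+AOS-FMT lay below STZ+control-FMT without overlap, at -0.36 ± 0.32 (SE), adjusted p = 1.00, as did 4.85% of all genes. In STZ+control-FMT against STZ the 9 differences lay between -0.12 and 0.16, against a standard error of 0.13 to 0.65.

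Over the 4 STZ groups against the 2 groups without STZ, no enzyme was called, as 0.0552% of all genes were. Pkm had a log2 difference of 0.46 ± 0.20 (SE), adjusted p = 0.159, Fbp1 of 0.16 ± 0.10 (SE), adjusted p = 0.283, and Hk1 of 0.23 ± 0.18 (SE), adjusted p = 0.391. The call depended on the libraries that stood apart. Without control 3 and STZ 1, 4 enzymes were called, against 47.1% of all genes: Fbp1 (0.26, adjusted p = 0.0397), Hk1 (0.47, adjusted p = 0.0133), Pkm (0.73, adjusted p = 0.00108) and Pfkp. Without the 3 libraries with Cyp11b1 above 100 FPKM, 5 were called, against 32.2% of all genes: Pck1 at 0.89 (adjusted p = 0.0175), Fbp1 at 0.29 (adjusted p = 0.0129), G6pc at -0.76 (adjusted p = 0.0235), Pkm at 0.63 (adjusted p = 0.0309) and Slc37a4. Both exclusions were chosen after the data were seen. An F test over the 6 groups called no enzyme, and 0.647% of all genes, with Fbp1 lowest at adjusted p = 0.0797.

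Within a library, Pck1 and G6pc, both of which insulin represses in liver, did not keep a fixed ratio. Pck1 was 3.03, 9.56 and 8.92 times G6pc in FPKM in STZ+AOS, 4.74, 4.95 and 4.91 times in STZ+AOS-FMT and 6.08, 3.57 and 9.23 times in STZ+control-FMT. It was 2.01, 7.15 and 7.82 times in STZ, against 1.90, 2.03 and 2.87 times in AOS and 1.96, 1.38 and 4.19 times in control. The 12 libraries given STZ had a median of 5.52 and the 6 without it of 1.99, and STZ 1 and control 3 were again the nearest to the other treatment. The ratio was chosen after the values were seen and was not tested.

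The members were the main isozymes of their steps with some exceptions. Pck1 made up 97.8% to 99.7% of the summed FPKM of Pck1 and Pck2, Fbp1 87.5% to 99.1% of Fbp1 and Fbp2, Hk1 92.3% to 96.5% of the hexokinases, and Pkm 83.7% to 92.9% of Pkm and Pklr. G6pc made up 52.5% to 88.2% of the glucose 6-phosphatases, with its lowest share in STZ+AOS 1. Pfkp shared its step with Pfkl and Pfkm. It was above both in all 3 STZ+AOS libraries and in STZ 2, AOS 2, control 2 and control 3, and its share of the phosphofructokinases was 38.6% to 42.4% in STZ+AOS, 24.9% to 37.0% in STZ and 30.0% to 38.5% in AOS. Ldha was outweighed by Ldhb, whose product favours the oxidation of lactate, in every library, and its share was 19.9% to 23.4% in STZ+AOS, 21.3% to 30.2% in STZ, 26.5% to 29.2% in AOS and 22.3% to 28.2% in control.

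**Figure D5:**
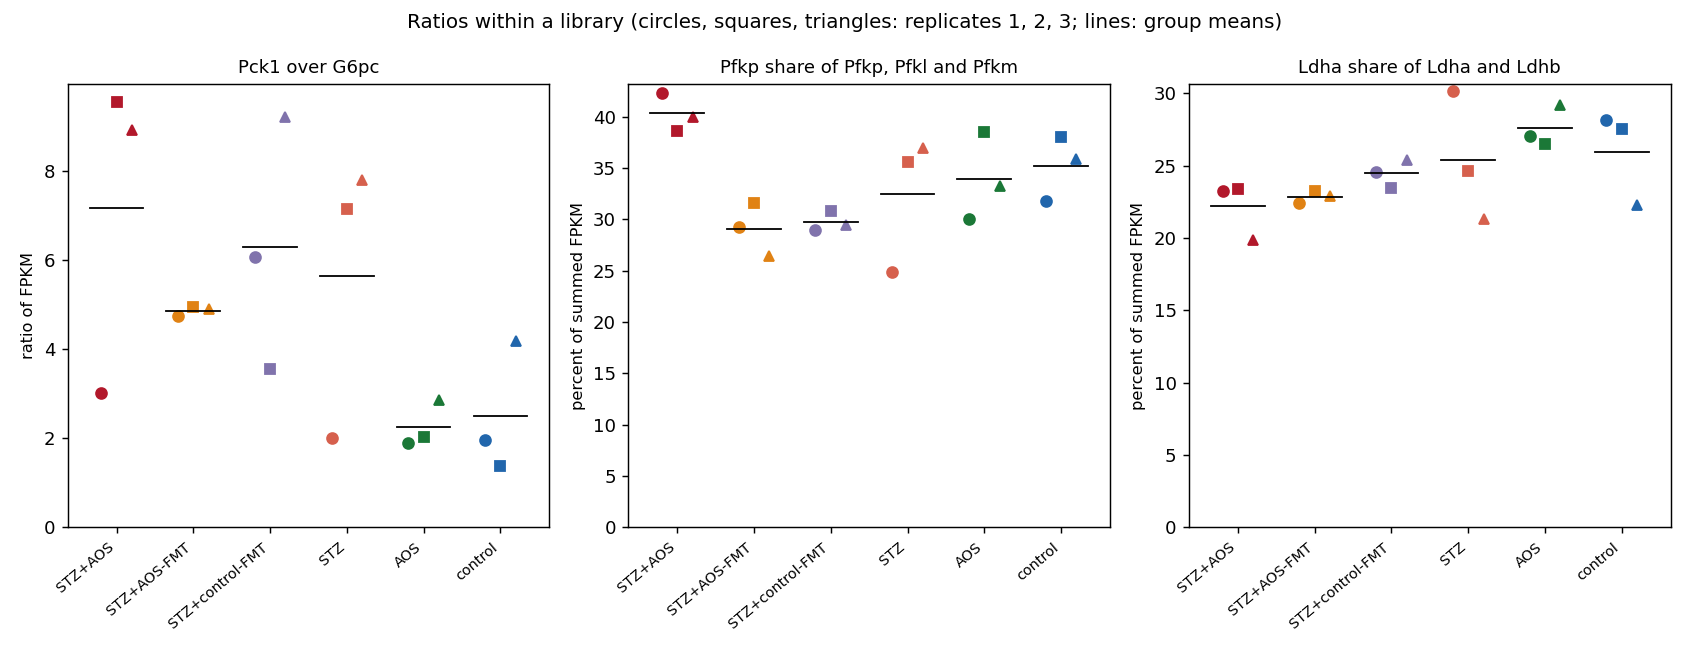
Ratio of Pck1 to G6pc and percent of the summed FPKM taken by Pfkp and Ldha, in each library by group, on axes that start at 0. The Pck1 to G6pc ratio is under 4.2 in all AOS and control libraries and reaches 9.56 in STZ+AOS 2, while the Ldha share is 30.2% at most.

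The rest of the pathway was followed with 81 other listed genes, 77 of which were tested. In STZ+AOS against AOS, 25 rose and 6 fell, with a median log2 difference of 0.30, against 0.29 over all genes, of which 46.5% were called. In STZ+AOS against STZ, 4 rose and 1 fell, with a median of 0.07, against 0.19, and in the other 7 comparisons none was called. Of 15 genes of lower glycolysis tested in STZ+AOS against AOS, 3 rose, Aldoc (1.52), Eno2 (1.44) and Aldoa (0.37), and Ldhd, which oxidises D-lactate, fell (-1.49). Of 13 other gluconeogenic genes tested, 4 rose and 2 fell. Fbp2, the muscle-type bisphosphatase, had a difference of 1.97, the alanine aminotransferase Gpt2 of 1.51, the aspartate aminotransferase Got1 of 1.01 and glycerol kinase Gk of -0.67, and Mdh1, a malate dehydrogenase, had the highest level at 667 FPKM.

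Pdk4, the kinase that shuts off pyruvate dehydrogenase in fasting and diabetes, was the only listed pathway gene called over the 6 groups by the F test (adjusted p = 0.0460). It was at 21.9, 15.1 and 26.6 FPKM in STZ+AOS, at 4.56, 2.27 and 6.57 FPKM in STZ+AOS-FMT and at 12.8, 6.62 and 6.08 FPKM in STZ+control-FMT. It was at 3.55, 4.79 and 10.7 FPKM in STZ, against 3.26, 3.44 and 4.46 FPKM in AOS and 3.31, 3.96 and 6.01 FPKM in control. The STZ+AOS libraries lay above all 15 others. Pdk4 rose in STZ+AOS against STZ, at 1.68 ± 0.37 (SE), adjusted p = 0.0370, and against AOS, at 2.21 ± 0.37 (SE), adjusted p = 0.00590. The call against STZ was lost without STZ 1, without STZ 2 and in a fit of only the groups compared. In those fits no gene was called higher against STZ. Mpc1, a subunit of the mitochondrial pyruvate carrier, was at 366, 456 and 446 FPKM in STZ+AOS, against 617, 606 and 497 FPKM in STZ and 646, 634 and 538 FPKM in AOS. It fell against STZ, at -0.44 ± 0.11 (SE), adjusted p = 0.0474, a call lost in a fit of only the groups compared, where no gene was called. Of 12 genes of the pyruvate dehydrogenase list, 3 rose and 1 fell in STZ+AOS against AOS, and beside Pdk4 these were Pdp1, a phosphatase that reactivates the enzyme (0.87), and the kinases Pdk1 (0.80) and Pdk3 (-1.05).

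Of 14 transcriptional regulators, 7 rose and 1 fell in STZ+AOS against AOS, where 39.3% of all genes were called higher and 7.18% lower, a share to be set beside each list here. The largest differences were Myc at 2.21, Cebpb at 1.85, Foxo3 at 1.33 and Hif1a at 0.79. Cebpb, an activator known to bind the Pck1 promoter in liver, was at 53.2, 25.0 and 61.5 FPKM in STZ+AOS, against 9.92, 15.7 and 22.7 FPKM in STZ, and it rose there too, at 1.45 ± 0.33 (SE), adjusted p = 0.0394. Mlxipl, the glucose-sensing factor ChREBP, rose against STZ, at 0.44 ± 0.10 (SE), adjusted p = 0.0370. Both calls against STZ, of Cebpb and Mlxipl, were lost without STZ 1, without STZ 2 and in a fit of only the groups compared. Among 7 genes of insulin signalling 3 rose against AOS, Irs2 (1.69), Insr (0.48) and Gsk3b (0.44). Of the 7, 1 rose against STZ, a call lost in the same fits as those of Cebpb and Mlxipl. In the family of phosphofructo-2-kinases, which set the level of the activator fructose 2,6-bisphosphate, 2 of 5 rose, Pfkfb3 (1.19) and Pfkfb2 (0.42). Of 6 tested lactate transport genes 1 fell, the sodium-coupled carrier Slc5a8 (-0.81), and of 5 tested hexose phosphorylation and phosphofructokinase genes 3 rose, Pfkl (0.59), Pfkm (0.33) and Gpi1 (0.32).

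The genes whose log2 levels over the 18 libraries were most like those of selected enzymes, by Pearson correlation among 12286 named genes, were Slc13a2 (0.92), Slc25a16 (0.92) and Sirt3 (0.92) for Pck1, and Igfbp4 (0.87), Fah (0.85) and Kcnj15 (0.85) for G6pc. For Hk2 they were Ptpn23 (0.89), Acin1 (0.87) and Khsrp (0.87), and for Ldha they were Babam1 (0.91), Tmem208 (0.87) and Tmem176a (0.86). The 18 points share groups and the libraries that stand apart, so these values are a description. Among the enzymes themselves the same measure was 0.95 for Hk1 with Pkm, 0.90 for Hk1 with Pfkp and 0.82 for G6pc with Pcx, but 0.29 for Pck1 with G6pc. With the proximal tubule marker Slc34a1 it was -0.90 for Hk1, -0.89 for Pkm, -0.87 for Pfkp and -0.63 for Hk2, but 0.66 for Ldha. On the gluconeogenic side it was 0.63 for Pcx, 0.60 for G6pc, 0.48 for Fbp1, 0.41 for Slc37a4 and -0.04 for Pck1. High values were not particular to Slc34a1. With Cdkn1a the measure was 0.90 for Pkm and 0.81 for Hk1, and with Havcr1 it was -0.90 for Pcx and -0.77 for G6pc. With Umod it was 0.06 for Hk1 and -0.16 for Pkm.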

How the data were processed

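Frozen kidneys gave RNA by Trizol and PureLink columns, and libraries followed standard Illumina steps, per the labels' protocols. Bowtie 0.12.2 and the genome mm10 are listed per the submitters' processing notes, while neither counting tool nor annotation is given in the sources used here. The authors deposited 1 table of values read here as FPKM, since no label or header names the unit: the sum of value times gene length varied by 0.919% over libraries and the plain sum by 5.48%. No counts are given, so sequencing depth is unknown and counting error cannot be bounded; between 11407 and 12607 genes per library had at least 1 FPKM.

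The 12682 genes reaching 1 FPKM in 3 or more libraries were fitted as log2(FPKM + 1), which understates changes of low genes, in limma 3.58.1 (R 4.3.3) with 1 mean per group over all 18 libraries, a trended prior and the robust option, and Benjamini-Hochberg adjustment over all genes. The fit was tested on simulated data. The alternatives were other scalings, pseudocounts, filters, library weights, a replicate block, fits of only the groups compared, and each library left out. All 10 enzymes were named; of the other pathway lists, at most 4 called genes with the largest differences and the most abundant gene could be named, and of the markers Slc34a1, Umod, Kap, Cdkn1a, Havcr1 and Cyp11b1. The enzymes and lists were chosen with earlier results of these data known. Promoters are from RefSeq, build GRCm38.p6, and figures were drawn with matplotlib 3.10.9.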

Additional observations from a re-analysis of the deposited data

How the results depend on the processing

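Most of the member differences given with a test were not called, so a kept side of the threshold mostly means a value that stayed uncalled. Of 6 fits with 1 library left out, the call in STZ+AOS against AOS was lost in 5 for G6pc and 5 for Pcx. It was lost in 2 for Hk1, 2 for Pfkp and 0 for Pkm, and that of Fbp1 in STZ+AOS against STZ in 3. Under other settings, the exclusions chosen after the data were seen included, 391 of 427 values kept their direction and side of the threshold, 20 lost the threshold, 16 gained it and none changed sign. Leaving out 1 library kept 272 of 306, lost 17, gained 14 and changed the sign of 3, none of which was past the threshold with its sign changed: Pck1 in STZ+AOS against AOS ranged from -0.46 (without STZ+AOS 3) to 1.40 (without STZ+AOS 1, called), Pck1 in STZ+AOS against STZ from -1.17 to 0.69 (without STZ+AOS 1), and Slc37a4 in STZ+AOS against AOS from -0.62 to 0.15 (without STZ+AOS 1). Of 9 enzymes, the number called in STZ+AOS against AOS was 5, 3 after quantile normalization and 3 in a fit of only the groups compared, and 1 to 7 with 1 library left out. In STZ+AOS against STZ it was 1, 0 after quantile normalization, with a pseudocount of 0.1 or in a fit of only the groups compared, and 0 to 5 with 1 library left out, the 5 without STZ 3; with no filter it was 2 of 10, Fbp1 and Hk2. Library weights called 1 in STZ against control (7.76% of all genes), 1 in the interaction (0.442%), 6 over the 4 STZ groups (56.1%) and 7 by the F test (49.5%), which was 1 after median-of-ratios rescaling. With 1 library left out the interaction called 0 to 3 (3 without STZ 3), the 4 STZ groups 0 to 1 (1 without STZ 1 or control 3) and the F test 0 to 2 (2 without STZ 1 or control 3). For the other pathway genes, single values under the alternatives were not examined, only the counts over all genes. Of the exclusions chosen after the data were seen, leaving out control 3 and STZ 1 called 0 in STZ+AOS against STZ, 4 over the 4 STZ groups and 4 by the F test, and leaving out the libraries with Cyp11b1 above 100 FPKM called 0 in STZ+AOS against STZ, 1 in STZ+AOS against AOS and 5 over the 4 STZ groups. The cause of these changes was not tested, beyond the smaller number of samples. The replicate number as a block called 4 in STZ+AOS against AOS, where G6pc was at adjusted p = 0.0636, and 1 in STZ+AOS against STZ. No label says that the numbers pair libraries, so they were not taken as pairs. Same-numbered libraries of different groups had correlations of deviations from -0.26 to 0.67, with a median of -0.004, over 0.1 in 15 of 45 pairs. Differently numbered ones ranged from -0.72 to 0.59, with a median of 0.001, over 0.1 in 16 of 90 pairs. Depth is unknown, so no limit can be set on low values such as those of Hk2.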
